A study of Rattus norvegicus with 30 samples.

Results

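Arteriovenous identity in rat lung endothelium was examined through 6 genes chosen by gene name. Efnb2 and Bmx represented arteries, and Ephb4, Nr2f2, Slc6a2 and Emcn represented veins or large vessels. They were 6 of the 30562 rows of the deposited table, and all 6 were among the 16171 genes abundant enough to test.

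The 30 libraries came from lung cells of wild-type rats that were sorted on magnetic beads for CD31, a surface protein of endothelial cells. Tissue was taken 3 weeks after a sham operation or a Glenn operation, which leads blood of the superior caval vein, without blood from the liver, straight into the pulmonary artery. Within each surgery the rats ate a vitamin A control diet, a vitamin A deficient diet or a vitamin A excess diet, which gave 6 groups of 5 libraries, all wild-type and all from the same time point. Rat strain, age and the number of rats behind a library were not given in the sources used here, so p-values measure only the spread between these samples, which may be technical.

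Arteries and veins keep separate molecular programmes. EphrinB2, the product of Efnb2, is a membrane ligand of arterial endothelium, and its receptor EphB4, the product of Ephb4, is carried mainly by venous endothelium, so that contact between the cells signals in both directions. Nr2f2 encodes COUP-TFII, a nuclear receptor that maintains venous fate by restraining Notch signalling, and Bmx encodes a Tec family tyrosine kinase of arterial endothelium. Slc6a2 encodes the noradrenaline transporter, with which lung endothelium clears noradrenaline from the blood, and Emcn encodes endomucin, a sialomucin on the surface of venous and capillary endothelium.

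Total estimated counts ran from 22.03 to 77.6 M (M, mega) per library, with a median of 39.97 M. Levels are given as CPM, counts per 1 M of a library's effective total, which is its counts in tested genes times its TMM scaling factor. Markers of endothelium in general (Pecam1, Cdh5, Tie1, Kdr and Erg) summed to 5178 to 6792 CPM over the 15 sham libraries. Over the 15 Glenn libraries they summed to 4014 to 5774 CPM. Averaged over diets, 2 of the 5 rose and 2 fell after Glenn surgery, where 23.4% of all tested genes rose and 24.7% fell. Leukocyte markers summed to at most 34.8 CPM, whereas alveolar type 2 markers summed to 18474 to 45367 CPM, so the sorted material also held epithelial RNA. Library numbers fall in separate ranges, called here series A (22 libraries) and series B (8 libraries). Series B holds 3 sham deficient, 2 Glenn deficient and 3 Glenn excess libraries, and the surgery effect was fitted with the series as a term. On the excess diet only Glenn libraries were of series B, so surgery and series are partly confounded there. The MHC gene RT1-CE16 was above 100 CPM in 13 libraries, 5 of series A on the control diet and all 8 of series B, and was lower in the other 17. No member passed the test of a difference between the series, and the closest was Emcn (log2 difference -0.33, series B minus A, edgeR adjusted p 0.130).

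Glenn surgery moved members of both classes in both directions. Averaged over the 3 diets, arterial Efnb2 fell to 61.4% of the sham level while arterial Bmx rose 2.49-fold. Among the venous or large-vessel genes, Ephb4 fell to 72.3% and Slc6a2 to 37.9% of the sham level, while Nr2f2 rose 1.35-fold and Emcn 1.16-fold. All 6 passed an adjusted p of 0.05 in that average, 3 higher and 3 lower, where 48.2% of all tested genes passed, 23.4% higher and 24.7% lower. By diet, 6 of 6 passed on the control diet against 24.9% of all genes, 5 of 6 on the deficient diet against 27.4%, and 4 of 6 on the excess diet against 21.9%. Efnb2, Bmx, Nr2f2 and Slc6a2 passed in the same direction on all 3 diets, which makes 4 of 6 members against 13.5% of all genes. In bulk RNA, fewer cells of a type and less RNA per cell cannot be told apart.

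**Figure D1:**
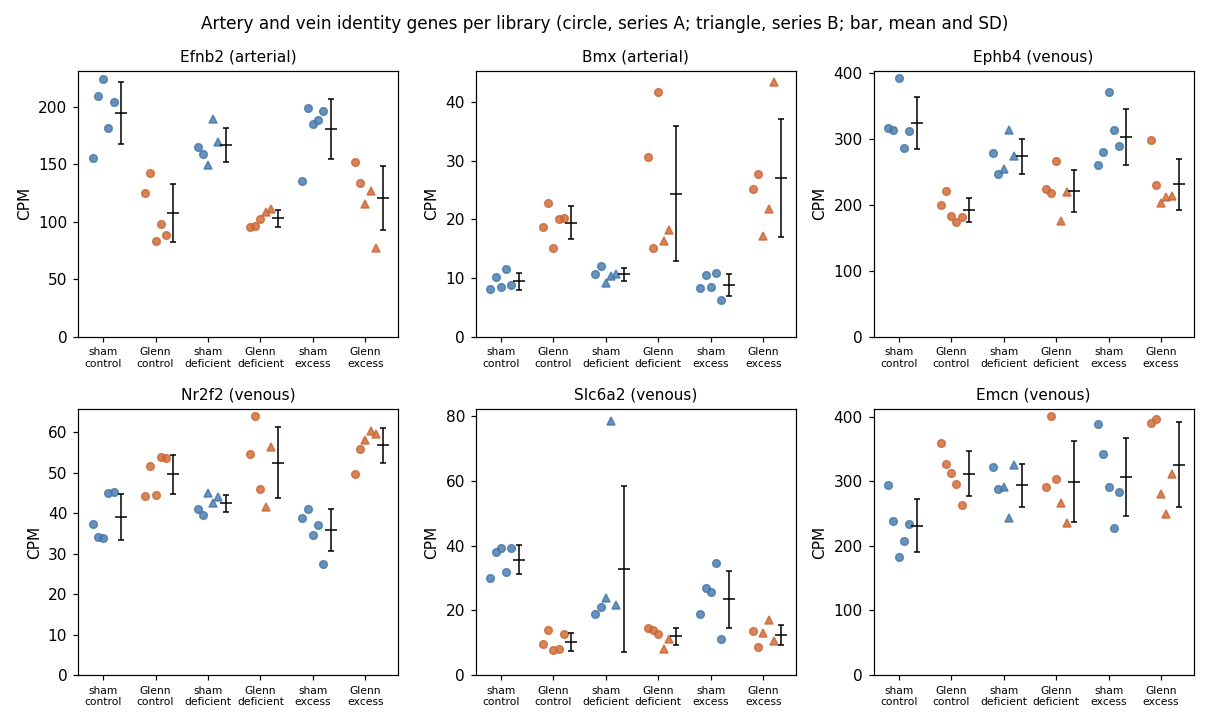
CPM of each member (vertical axis) in each library of the 6 groups, sham in blue and Glenn in orange, as circles (series A) or triangles (series B), with bars for the group mean and SD. Bmx is the member whose 15 Glenn libraries (15.05 to 43.4 CPM) all lie above its 15 sham libraries (6.26 to 12.1 CPM).

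Of the members, 4 had promoter sequence in the RefSeq table for build GRCr8, and the 250 bases before each start are printed here because the members moved in opposite directions within each class. Capitals mark the ETS core GGAA or its complement TTCC, the letters bound by the ETS factors of endothelium.

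Efnb2, chr16:87484965-87485214, plus strand: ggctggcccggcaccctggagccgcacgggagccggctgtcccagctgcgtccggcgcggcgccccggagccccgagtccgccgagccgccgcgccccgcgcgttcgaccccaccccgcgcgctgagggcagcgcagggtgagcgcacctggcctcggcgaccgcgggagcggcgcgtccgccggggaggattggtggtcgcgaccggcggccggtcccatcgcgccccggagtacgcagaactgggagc

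Bmx, chrX:33858878-33859127, plus strand: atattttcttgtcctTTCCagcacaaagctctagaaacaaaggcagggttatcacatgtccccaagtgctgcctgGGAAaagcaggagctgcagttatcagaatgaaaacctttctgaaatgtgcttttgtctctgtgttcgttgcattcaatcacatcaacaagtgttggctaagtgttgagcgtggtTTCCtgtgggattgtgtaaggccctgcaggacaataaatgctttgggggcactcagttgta

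Ephb4, chr12:24988389-24988638, minus strand: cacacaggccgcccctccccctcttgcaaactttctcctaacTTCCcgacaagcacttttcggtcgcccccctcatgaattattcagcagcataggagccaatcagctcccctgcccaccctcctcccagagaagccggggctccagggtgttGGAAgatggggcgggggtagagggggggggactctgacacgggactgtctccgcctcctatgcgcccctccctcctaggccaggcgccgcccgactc

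Emcn, chr2:228564289-228564538, plus strand: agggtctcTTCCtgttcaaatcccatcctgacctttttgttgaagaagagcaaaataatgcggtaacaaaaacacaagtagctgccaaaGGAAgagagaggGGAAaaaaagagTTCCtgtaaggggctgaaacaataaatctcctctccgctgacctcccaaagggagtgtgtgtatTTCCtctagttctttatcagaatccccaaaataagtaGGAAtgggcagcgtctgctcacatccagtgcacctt

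These 4 windows differed in base composition. The Efnb2 window was 80.4% G or C with 43 CG dinucleotides, against medians of 51.2% and 5 over 33469 promoter windows of that length. It lay at percentile 99.1 for G and C content. Ephb4 had 64.4% and 12 CG dinucleotides, Bmx 44.8% and 2, and Emcn 44.4% and 3.

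The window of Emcn held 6 GGAA matches counted on both strands, that of Bmx 3, that of Ephb4 2 and that of Efnb2 0, where 93.2% of all windows held at least 1. ACAAT, a core of SOX factors, occurred 2 times in Bmx and 1 time in Emcn (30% of windows). TGGGAA, the RBPJ letters that carry Notch signals and contain GGAA, occurred 1 time in Bmx, where it overlaps an ETS match (22.1% of windows). TGACC, bound by nuclear receptors, occurred 2 times in Emcn (35.4% of windows), and GTCTG, bound by SMADs, 1 time in Emcn (42.9%). CACCC, bound by KLF factors, occurred 3 times in Efnb2 and 2 times in Ephb4 (49.2%). A match is a run of letters and not a measured binding site.

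Efnb2 (ENSRNOG00000064362), the arterial ligand, was lower after Glenn surgery on each diet. On the excess diet the call was lost in some of the alternative fits. On the control diet it stood at 155, 209, 224, 181 and 204 CPM in sham replicates 1 to 5 and at 125, 142, 83.6, 97.6 and 88.8 CPM in Glenn replicates 1 to 5. On the deficient diet the sham libraries held 165, 159, 149, 189 and 169 CPM and the Glenn libraries 95.8, 96.1, 102, 109 and 111 CPM. On the excess diet the sham libraries held 135, 199, 185, 189 and 196 CPM and the Glenn libraries 152, 133, 115, 127 and 77.1 CPM. Sham and Glenn libraries were separate on the control and deficient diets. On the excess diet sham replicate 1 and Glenn replicate 1 crossed, and 4 of 5 Glenn libraries were below every sham library of that diet. Over all diets 13 of 15 Glenn libraries were below every sham library.

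Mean Efnb2 levels were 181 ± 24.6 CPM in sham and 110.4 ± 21.9 CPM in Glenn libraries (SD, n = 15 each). Its log2 change, Glenn minus sham, was -0.86 (SE 0.15, edgeR adjusted p 6.13e-05) on the control diet, -0.71 (SE 0.15, edgeR adjusted p 0.000649) on the deficient diet and -0.54 (SE 0.16, edgeR adjusted p 0.0151) on the excess diet. In group order Efnb2 rose from Glenn deficient (103 ± 7.05 CPM) through Glenn control (108 ± 25.2 CPM) and Glenn excess (121 ± 27.8 CPM) to sham deficient (166 ± 14.9 CPM), sham excess (181 ± 26.0 CPM) and sham control (195 ± 26.7 CPM; SD, n = 5 each). The step from Glenn excess to sham deficient was the only gap between neighbours that exceeded the larger of their SDs. Within series A, which leaves 5 sham and 2 Glenn libraries on the excess diet, the Efnb2 change there was -0.33 (edgeR adjusted p 0.249) and the call was lost. It was also lost when only the groups compared were fitted, with the series as a term (-0.33, edgeR adjusted p 0.280).

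Bmx (ENSRNOG00000003705), the arterial kinase, was higher after Glenn surgery whatever the diet. Sham libraries on the control diet, replicates 1 to 5 in order, held 8.20, 10.1, 8.39, 11.5 and 8.82 CPM and Glenn libraries 18.8, 22.8, 15.1, 20.05 and 20.1 CPM. Sham libraries on the deficient diet held 10.7, 12.1, 9.16, 10.3 and 10.7 CPM and Glenn libraries 30.6, 15.05, 41.7, 16.3 and 18.2 CPM. Sham libraries on the excess diet held 8.26, 10.5, 8.42, 10.8 and 6.26 CPM and Glenn libraries 25.2, 27.7, 17.1, 21.7 and 43.4 CPM. Every Glenn library was above every sham library, within each diet and over all 30 libraries. Such separation over all diets was found for 1 of 6 members and for 5.83% of all genes. Glenn deficient replicates 1 and 3 and Glenn excess replicate 5 were the highest of all.

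Mean Bmx levels were 9.62 ± 1.56 CPM in sham and 23.6 ± 8.90 CPM in Glenn libraries (SD, n = 15 each). Its log2 change was 1.04 (SE 0.23, edgeR adjusted p 0.00102) on the control diet, 1.12 (SE 0.24, edgeR adjusted p 0.000637) on the deficient diet and 1.79 (SE 0.26, edgeR adjusted p 6.27e-06) on the excess diet. The order ran from sham excess (8.85 ± 1.86 CPM), sham control (9.41 ± 1.40 CPM) and sham deficient (10.6 ± 1.06 CPM) to Glenn control (19.4 ± 2.80 CPM), Glenn deficient (24.4 ± 11.5 CPM) and Glenn excess (27.03 ± 9.98 CPM; SD, n = 5 each). The gap between sham deficient and Glenn control was the only one above the larger SD. Markers of mural cells, the smooth muscle cells and pericytes around vessels, rose alongside. Averaged over diets all 8 were higher, where 23.4% of all tested genes were. On the control diet 6 of 8 were called higher, against 11.8% of all tested genes. Their sum was 161 to 328 CPM in sham and 465.6 to 1687 CPM in Glenn libraries. The part of mural cells in the Bmx change was not tested.

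Ephb4 (ENSRNOG00000045952), the venous receptor of ephrinB2, was lower in Glenn than in sham libraries. On the control diet it stood at 317, 313, 393, 287 and 312 CPM in sham replicates 1 to 5 and at 201, 221, 184, 174 and 182 CPM in Glenn replicates 1 to 5. On the deficient diet the sham libraries held 279, 247, 254, 314 and 274 CPM and the Glenn libraries 224, 218, 266, 176 and 219 CPM. On the excess diet the sham libraries held 261, 279.6, 371, 314 and 290.0 CPM and the Glenn libraries 298, 231, 203, 213 and 213 CPM. The surgeries were separate on the control diet, where 4 of 6 members were separate against 17.2% of all genes. On each of the other diets 1 Glenn library (deficient replicate 3, excess replicate 1) reached into the sham range, and over all diets 13 of 15 were below every sham library.

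Mean Ephb4 levels were 300.3 ± 40.4 CPM in sham and 215 ± 33.3 CPM in Glenn libraries (SD, n = 15 each). Its log2 change was -0.75 (SE 0.11, edgeR adjusted p 3.21e-06) on the control diet and -0.35 (SE 0.11, edgeR adjusted p 0.0151) on the deficient diet. On the excess diet the value was -0.30 (SE 0.12, 95% interval -0.54 to -0.05) and missed the threshold (edgeR adjusted p 0.0743). The group means ran from Glenn control (192 ± 18.8 CPM), Glenn deficient (221 ± 31.9 CPM) and Glenn excess (231 ± 38.7 CPM) to sham deficient (274 ± 26.3 CPM), sham excess (303 ± 42.3 CPM) and sham control (324 ± 39.9 CPM; SD, n = 5 each). Only the gap from Glenn excess to sham deficient was above the larger SD. Within series A the deficient diet gave -0.15 (edgeR adjusted p 0.562) and the call was lost.

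Nr2f2 (ENSRNOG00000010308), the venous nuclear receptor, was higher in Glenn than in sham libraries. Sham libraries on the control diet, replicates 1 to 5 in order, held 37.4, 34.2, 33.8, 44.9 and 45.3 CPM and Glenn libraries 44.3, 51.6, 44.4, 53.8 and 53.6 CPM. Sham libraries on the deficient diet held 40.9, 39.6, 45.0, 42.4 and 44.0 CPM and Glenn libraries 54.6, 63.9, 46.0, 41.6 and 56.2 CPM. Sham libraries on the excess diet held 38.8, 41.0, 34.6, 37.2 and 27.5 CPM and Glenn libraries 49.6, 55.9, 58.1, 60.4 and 59.5 CPM. Only on the excess diet were the surgeries separate for Nr2f2. There 2 of 6 members, Bmx and Nr2f2, were separate against 16.3% of all genes. Over all diets 12 of 15 Glenn libraries were above every sham library.

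Mean Nr2f2 levels were 39.1 ± 5.10 CPM in sham and 52.9 ± 6.58 CPM in Glenn libraries (SD, n = 15 each). Its log2 change was 0.34 (SE 0.11, edgeR adjusted p 0.0203) on the control diet, 0.32 (SE 0.11, edgeR adjusted p 0.0328) on the deficient diet and 0.64 (SE 0.12, edgeR adjusted p 0.000268) on the excess diet. The order ran from sham excess (35.8 ± 5.22 CPM), sham control (39.1 ± 5.63 CPM) and sham deficient (42.4 ± 2.19 CPM) to Glenn control (49.5 ± 4.81 CPM), Glenn deficient (52.5 ± 8.79 CPM) and Glenn excess (56.7 ± 4.31 CPM; SD, n = 5 each), with only the step from sham deficient to Glenn control above the larger SD. The call was lost without any 1 of 3 libraries on the control diet and of 6 on the deficient diet, and on the deficient diet within series A (0.45, edgeR adjusted p 0.0652).

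COUP-TFII is also made by lymphatic endothelium and by fibroblasts. Markers of both rose averaged over diets, where 23.4% of all tested genes rose. All 6 lymphatic markers were higher in that average, with sums of 655 to 1175 CPM in sham and 1042 to 1682 CPM in Glenn libraries. Most of those sums was Lyve1, at 677 CPM in sham and 845 CPM in Glenn libraries (log2 change 0.36). Prox1 was far lower, at 5.23 and 11.2 CPM (1.12). By diet, 5 of the lymphatic markers were called higher on the control diet, 5 on the deficient diet and 4 on the excess diet. The shares of all tested genes called higher were 11.8%, 13.7% and 11.6% in that order. All 6 fibroblast markers were higher in the average too, with sums of 319 to 806 CPM and 586 to 1226 CPM. Of these fibroblast markers, 0 were called on the control diet, 3 were called higher on the deficient diet and 1 on the excess diet, against the same shares by diet. Their part in the Nr2f2 change was not tested.

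Slc6a2 (ENSRNOG00000016311), the noradrenaline transporter, had the largest decrease of the members. With the control diet it stood at 30.1, 38.0, 39.4, 31.9 and 39.2 CPM in sham replicates 1 to 5 and at 9.46, 13.9, 7.62, 8.05 and 12.5 CPM in Glenn replicates 1 to 5. With the deficient diet the sham libraries held 19.0, 21.0, 23.9, 78.7 and 21.7 CPM and the Glenn libraries 14.6, 13.8, 12.7, 7.93 and 11.3 CPM. With the excess diet the sham libraries held 18.9, 27.1, 25.6, 34.6 and 11.3 CPM and the Glenn libraries 13.5, 8.68, 12.9, 16.9 and 10.4 CPM. The surgeries were separate on the control and deficient diets. On the deficient diet 3 of 6 members (Efnb2, Bmx and Slc6a2) were separate, against 19.6% of all genes. Sham deficient replicate 4 stood far above the other sham libraries, and sham excess replicate 5 lay within the Glenn range.

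Mean Slc6a2 levels were 30.7 ± 15.7 CPM in sham and 11.6 ± 2.82 CPM in Glenn libraries (SD, n = 15 each). Its log2 change was -1.79 (SE 0.33, edgeR adjusted p 0.000158) on the control diet, -1.32 (SE 0.35, edgeR adjusted p 0.00505) on the deficient diet and -1.09 (SE 0.37, edgeR adjusted p 0.0343) on the excess diet. Without sham deficient replicate 4 the change on the deficient diet was -0.83 (edgeR adjusted p 0.0125), and within series A it was -0.54 (edgeR adjusted p 0.290), which lost the call. The order ran from Glenn control (10.3 ± 2.77 CPM), Glenn deficient (12.1 ± 2.62 CPM) and Glenn excess (12.5 ± 3.15 CPM) to sham excess (23.5 ± 8.82 CPM), sham deficient (32.9 ± 25.7 CPM) and sham control (35.7 ± 4.39 CPM; SD, n = 5 each). On the excess diet the call was lost without any 1 of 7 libraries. Only the step from Glenn excess to sham excess was above the larger SD. Sympathetic nerve endings carry the same transporter. Their markers Th and Dbh, enzymes of noradrenaline synthesis, together reached at most 0.210 CPM in any library. The part of nerve endings in the Slc6a2 change was not tested.

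Emcn (ENSRNOG00000022910), the sialomucin, differed least between surgeries. With the control diet it stood at 294, 238, 183, 207 and 234 CPM in sham replicates 1 to 5 and at 359, 327, 312, 296 and 264 CPM in Glenn replicates 1 to 5. With the deficient diet the sham libraries held 322, 288, 291, 243 and 326 CPM and the Glenn libraries 290.4, 401, 304, 266 and 235 CPM. With the excess diet the sham libraries held 388, 342, 291, 228 and 283 CPM and the Glenn libraries 389, 397, 280.4, 249 and 311 CPM. The surgeries overlapped on every diet, and over all diets 3 of 15 Glenn libraries were above every sham library.

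Mean Emcn levels were 277 ± 55.1 CPM in sham and 312 ± 53.2 CPM in Glenn libraries (SD, n = 15 each). Its log2 change was 0.43 (SE 0.13, edgeR adjusted p 0.0151) on the control diet. It missed the threshold on the deficient diet (-0.06, 95% interval -0.33 to 0.22, edgeR adjusted p 0.805) and on the excess diet (0.27, 95% interval -0.03 to 0.56, edgeR adjusted p 0.203). The lowest group was sham control (231 ± 41.5 CPM), followed by sham deficient (294 ± 33.5 CPM), Glenn deficient (299 ± 62.4 CPM), sham excess (306 ± 60.9 CPM), Glenn control (312 ± 35.3 CPM) and Glenn excess (325 ± 65.8 CPM; SD, n = 5 each). Only sham control was set apart from its neighbour by more than the larger SD. Averaged over diets the change was 0.21 (SE 0.08, edgeR adjusted p 0.0218), and it was 0.18 (edgeR adjusted p 0.0828) with no term for the library series and 0.18 (edgeR adjusted p 0.0554) without Glenn deficient replicate 2.

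**Figure D2:**
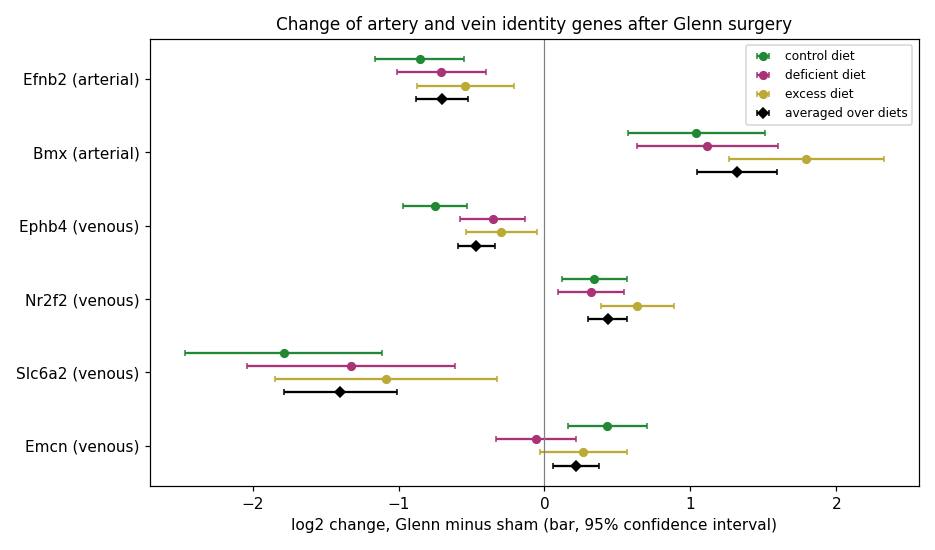
Log2 change, Glenn minus sham, of each member on each diet and averaged over diets, as points with 95% intervals, from the edgeR fit over 30 libraries. The averaged intervals lie below 0 for Efnb2 (-0.88 to -0.53), Ephb4 (-0.60 to -0.34) and Slc6a2 (-1.79 to -1.01) and above 0 for Bmx (1.04 to 1.59), Nr2f2 (0.30 to 0.56) and Emcn (0.06 to 0.37).

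On the control diet the 17 RT1-CE16-low libraries include only 2 sham and 3 Glenn libraries. In those the changes of Efnb2, Ephb4 and Slc6a2 kept their calls, while Bmx (1.06), Nr2f2 (0.40) and Emcn (0.33) kept their direction and missed the threshold. Averaged over diets within series A, all 6 members remained past the threshold, with log2 changes of -0.63 for Efnb2, 1.33 for Bmx, -0.36 for Ephb4, 0.46 for Nr2f2, -1.13 for Slc6a2 and 0.31 for Emcn.

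The other question of the design was whether vitamin A content alters these genes. No member passed the test of any difference among the 3 diets, after sham surgery (0 of 6, against 0% of all genes by edgeR) or after Glenn surgery (0 of 6, against 0.538%), and no member passed the surgery by diet interaction (0 of 6, against 0.00618%). Over all genes after sham surgery, 1417 had an unadjusted p under 0.05 in edgeR, and DESeq2 called 202 and limma voom 52. Emcn came nearest after sham surgery. Relative to the control diet it was 0.55 log2 higher on the deficient diet (95% interval 0.25 to 0.85) and 0.41 higher on the excess diet (0.14 to 0.67), with an edgeR adjusted p of 0.182, and DESeq2 called it with an adjusted p of 0.0409.

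After Glenn surgery Ephb4 came nearest. It was 0.26 log2 higher on the deficient diet (95% interval 0.03 to 0.49) and 0.36 higher on the excess diet (0.12 to 0.60) than on the control diet, with an edgeR adjusted p of 0.269. Bmx was 0.42 higher on the deficient diet (-0.06 to 0.89) and 0.66 higher on the excess diet (0.14 to 1.19), with an edgeR adjusted p of 0.427. For the interaction, Ephb4 had an edgeR adjusted p of 0.743 and Emcn one of 0.870, so the smaller change of Ephb4 on the deficient and excess diets and the absence of a call for Emcn there were not shown to differ from the control diet.

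Of 19 other listed arterial genes, 14 rose and 3 fell after Glenn surgery averaged over diets, where 23.4% of all tested genes rose and 24.7% fell. Their median log2 change was 0.38, and that of all tested genes -0.01. By diet, 6 rose and 2 fell on the control diet, 12 rose and 1 fell on the deficient diet, and 11 rose and 1 fell on the excess diet. Of all tested genes, 11.8% rose and 13.1% fell on the control diet. The shares were 13.7% and 13.7% on the deficient diet, and 11.6% and 10.4% on the excess diet. The connexin Gja5 rose in the average (0.39) but had a value of -0.32 on the control diet, where it was not called. The largest rises were those of Dkk2, a secreted Wnt modulator, from 5.23 to 28.9 CPM (log2 change 2.53), Cxcr4, the receptor of Cxcl12, from 98.3 to 359.7 CPM (1.83), and Mgp, the matrix Gla protein that binds BMPs, from 88.7 to 281 CPM (1.70). Those that fell were Nrp1, a co-receptor of VEGF, from 963 to 578 CPM (-0.74), the connexin Gja4 from 195 to 134 CPM (-0.54) and Notch1 from 305 to 249 CPM (-0.28). Hey2 and Jag2 were not called. Markers of mural cells and fibroblasts rose in the same libraries, and their part in the changes of this list was not tested.

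Of 11 other listed venous or large-vessel genes, 3 rose and 6 fell averaged over diets, where 23.4% of all tested genes rose and 24.7% fell. Their median log2 change was -0.35. On the control diet and on the deficient diet 3 rose and 5 fell, but on the excess diet 5 rose and 3 fell. Of all tested genes, 11.8% rose and 13.1% fell on the control diet. The shares were 13.7% and 13.7% on the deficient diet, and 11.6% and 10.4% on the excess diet. Cpe, a carboxypeptidase, rose from 21.5 to 65.5 CPM (log2 change 1.63), Selp, the adhesion molecule P-selectin, from 41.3 to 80.6 CPM (1.03) and Nrp2 from 78.8 to 123 CPM (0.62). Amigo2, an adhesion protein, fell from 373 to 55.1 CPM (-2.76), Bst1, an ectoenzyme, from 172 to 48.3 CPM (-1.79) and Car8 from 146 to 85.8 CPM (-0.77). Ackr1 and Prss23 were not called in the average, but both were called higher on the excess diet (1.07 and 0.30, edgeR adjusted p 0.000388 and 0.00872). These lists were drawn up with earlier results of these libraries known.

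Among the genes listed around Efnb2 and Ephb4, the share of called genes was near that of all genes (48.2%). Of 7 tested genes listed with the B class, Epha4 and Rasa1 among them, 2 rose, 2 fell and 3 were not called, with a median of 0.20. Ephb1, another receptor of B-class ephrins, rose from 3.52 to 26.6 CPM (log2 change 2.83) and Ephb3 from 9.56 to 15.5 CPM (0.64). Efnb1, the ligand related to Efnb2, fell from 418 to 202 CPM (-1.03), and Epha4, an A-class receptor that also binds B-class ephrins, fell from 44.1 to 19.4 CPM (-1.17). Rasa1, the RasGAP that acts below EphB4, had a log2 value of -0.02 and was not called. Of 9 tested A-class genes, 3 rose (Epha3 0.79, Epha1 0.36 and Efna1 0.28), 1 fell (Epha2 -0.28) and 5 were not called, with a median of 0.11.

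Relatives of the remaining members did not all move with them. Both other COUP-TF genes fell, Nr2f1 from 5.50 to 3.65 CPM (log2 change -0.56) and Nr2f6 from 65.0 to 57.4 CPM (-0.17), opposite to Nr2f2. Of the 4 other Tec kinases 0 rose and 1 fell, Txk, which was under 1 CPM on average, and the list's median was -0.47. Among 8 tested genes of monoamine transport and breakdown, 1 rose, 1 fell and 6 were not called in the average, with a median of -0.11. Of those not called, Maob had an average of -0.06 but was called on each diet, in opposite directions. Its change was -0.42 on the control diet, -0.34 on the deficient diet and 0.56 on the excess diet (edgeR adjusted p 0.00966, 0.0362 and 0.00188). Slc6a4, the serotonin transporter, fell from 74.2 to 20.7 CPM (-1.96), as Slc6a2 did, while Maoa, an enzyme that degrades monoamines, rose from 124.6 to 183 CPM (0.56). Of 4 sialomucins, Cd34 rose from 3.71 to 14.0 CPM (1.91), Podxl fell from 531 to 319 CPM (-0.74) and Cd164 fell from 338 to 306 CPM (-0.15), against the small rise of Emcn, and the list's median was -0.05.

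**Figure D3:**
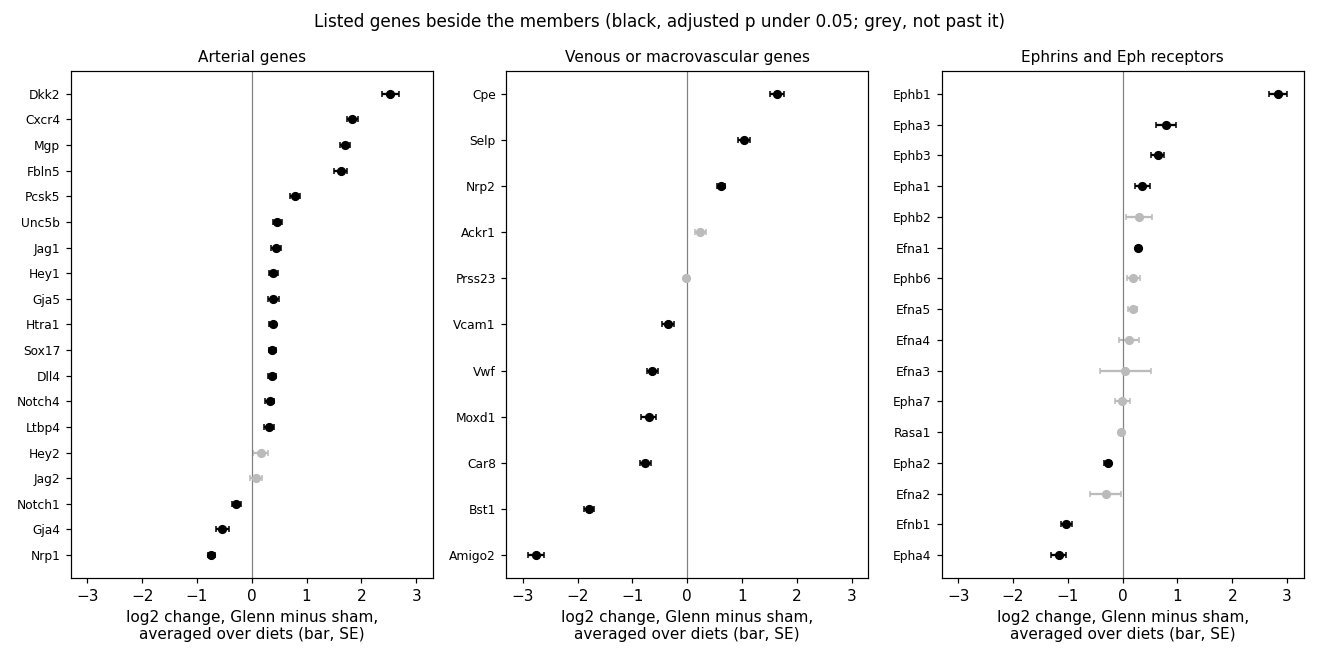
Log2 change, Glenn minus sham and averaged over diets, for each tested gene of the arterial, venous or large-vessel, and ephrin or Eph receptor lists. The last of these includes Rasa1. Points with SE bars are black where the edgeR adjusted p was under 0.05 and grey otherwise. The arterial list lies mostly above 0 (14 rose, 3 fell), and the venous or large-vessel list spreads to both sides (3 rose, 6 fell).

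Most capillary markers fell in the same libraries averaged over diets, where 24.7% of all tested genes fell and 23.4% rose. The counts that follow are for that average unless a diet is named. Of 4 general capillary markers 0 rose and 3 fell, and their sum of 4960 to 7963 CPM in sham libraries did not overlap that of 1917 to 4583 CPM in Glenn libraries. Most of that sum was Plvap, a protein of endothelial diaphragms, at 5149 CPM in sham and 1563 CPM in Glenn libraries (log2 change -1.69), while Kit (-0.57) and Aplnr (-0.32) fell less and Gpihbp1 (0.10) was not called. Of 5 aerocyte markers, of the large capillary cells that carry gas exchange, 1 rose and 3 fell. Their sums were 1007 to 1753 CPM and 710 to 1108 CPM. The marker that rose was Apln, from 184 to 475 CPM (log2 change 1.36). Alveolar type 2 markers fell in 4 of 4 cases, and of 4 alveolar type 1 markers 3 rose and 1 fell. Of the 4 platelet markers all fell (22.8 to 92.1 CPM and 20.6 to 84.6 CPM). On the control diet 0 of the alveolar type 2 and 0 of the platelet markers were called, against 24.9% of all tested genes. Of 3 leukocyte markers 1 fell, of 4 mesothelial markers 0 changed, and the single erythroid marker in the table, Alas2, rose. The part of these other cell types in the changes of the members and of the listed genes was not tested.

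**Figure D4:**
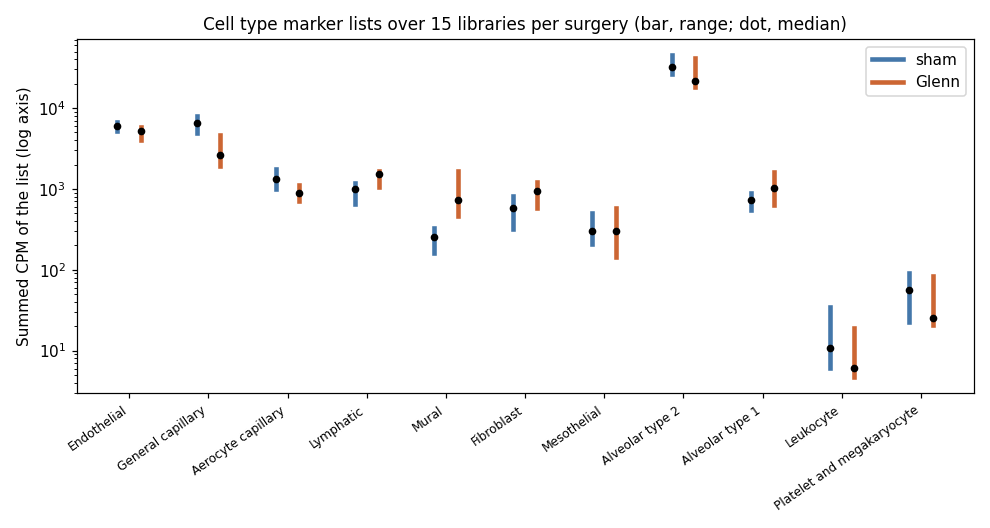
Summed CPM (log axis) of each cell type's marker list, with bars for the range and dots for the median over 15 sham (blue) and 15 Glenn (orange) libraries. General capillary sums are lower and mural sums higher in all 15 Glenn libraries than in all 15 sham libraries.

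Relations between members within a surgery were examined across 15 libraries on the log2(CPM + 1) scale. Diet means and series were not removed, so differences between diets can enter these values. Among the sham groups, the control diet had the highest mean Efnb2 (195 CPM) and Ephb4 (324 CPM) and the lowest mean Emcn (231 CPM). Of 30 relations, 15 per surgery, 0 passed a Benjamini-Hochberg adjusted p of 0.05. The strongest were in sham libraries. Efnb2 and Ephb4 had a Pearson r of 0.67 and a Spearman rho of 0.58 (permutation p 0.00659 and 0.0270, adjusted p 0.0962 and 0.137), and r was 0.56 without the 2 farthest libraries and 0.60 within series A. Efnb2 and Emcn had an r of -0.68 and a rho of -0.58 (permutation p 0.00495 and 0.0275, adjusted p 0.0962 and 0.137), with r -0.58 and -0.69 in the same checks. Bmx and Nr2f2 had an r of 0.65 and a rho of 0.44 (permutation p 0.00962 and 0.102, adjusted p 0.0962 and 0.279), and r was 0.32 without the 2 farthest libraries, on which the relation rests, and 0.68 within series A.

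Genes most like each member were ranked by Pearson r over the 30 libraries after group means and series were removed, among 12730 genes. Efnb2 was most like Snrk (r 0.88), Dock9 (0.86) and Eml1 (0.86). Bmx was most like Efhd1 (0.84), Tm4sf1 (0.83) and Palld (0.79), and Ephb4 was most like She (0.81), A3galt2 (0.80) and Arhgef2 (0.80). Nr2f2 had the lowest values, with Amph (0.69), Colec12 (0.69) and Mtmr11 (0.68). Slc6a2 was most like Cmklr1 (0.79), Ntn1 (0.77) and Wnt9b (0.75), and Emcn was most like Sap18 (0.83), Bccip (0.82) and Ufc1 (0.82). No member was among the 3 genes most like another member.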

How the data were processed

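RNA sequencing of CD31-sorted lung cells gave 30 libraries, made with a low-input SMART-Seq kit per the labels' protocols. The authors deposited 1 table of estimated counts per gene, of which 13.6% were fractional. The submitters' processing notes name FastQC, Trim Galore, STAR, Salmon and Picard and the build mRatBN7.2 (rn7), with no versions. Whether strand was used in counting was not given in the sources used here. In RefSeq, Bmx overlaps a pseudogene, Nr2f2 a long non-coding RNA and Ephb4 the gene Zan, which stood at no more than 0.234 CPM. All 30 sample columns were used and 0 were left out.

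Estimated counts were rounded, filtered with filterByExpr (minimum count 10, minimum total 15), scaled by TMM (factors 0.938 to 1.06) and fitted with edgeR 4.0.16 (quasi-likelihood, R 4.3.3) over all 30 libraries, with 6 group means and the library series as a term. P-values were adjusted by Benjamini-Hochberg over 16171 genes, with a threshold of 0.05. Tests were 2-sided. Correlation p-values came from 100000 permutations. No 2 libraries of a group agreed within sampling noise (chi-square per degree of freedom 21.3 to 127 over 60 pairs).

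The 6 members are described in full. From each list of related genes up to 3 raised and 3 lowered genes with the largest averaged change are named, among those past the threshold with mean levels of 1 CPM or more, and a count of 5 or fewer may be named in full. A gene whose direction differed between diets may be named as well. The members, lists and alternatives were chosen with earlier results of these data known. The alternatives were series A alone, a fit without the series, no low-count filter, DESeq2 1.42.0, its size factors in edgeR, voom of limma 3.58.1, a fit of just the groups in a comparison, a block for the replicate number, RT1-CE16 level (split at 100 CPM) without and with sex (Ddx3y split at 10 CPM) in place of the series, RT1-CE16-low libraries alone and leaving out each library. Some listed genes are not reported here and were left out of their lists' values. The steps were tested on simulated data. Promoter windows come from RefSeq's GRCr8 table and share no coordinates with the deposited counts. Figures were drawn with matplotlib 3.10.9.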

Additional observations from a re-analysis of the deposited data

Results flagged for a closer look

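In 36 sets of 5 libraries (each member in each group) the highest or lowest library was checked for standing apart, and 3 sets met the criterion, where chance gives about 1 in 20 sets, or 1.8 here. Slc6a2 stood at 78.7 CPM in sham deficient replicate 4, against 19.0 to 23.9 CPM in the other 4 libraries, so the gap took 0.9186 of the group's range. Efnb2 stood at 135 CPM in sham excess replicate 1, against 185 to 199 CPM in the others (0.7721 of the range). Ephb4 stood at 393 CPM in sham control replicate 3, against 287 to 317 CPM in the others (0.7201 of the range).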

How the results depend on the processing

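Of the members' log2 changes recomputed under the alternatives, 926 kept direction and side of the threshold, 39 lost the call, 8 gained it and 5 reversed, all 5 for Emcn on the deficient diet, where it was not called. Many of these fits removed none of the libraries compared, so the number kept does not measure robustness. That holds for a single diet when a library of another diet is left out. It also holds for series A alone on the control diet. Averaged over diets, Efnb2, Bmx, Ephb4, Nr2f2 and Slc6a2 were called under every alternative run. The cause of each loss was not tested.

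Within series A the deficient diet gave 2553 called genes, Ephb4 -0.15, Nr2f2 0.45, Slc6a2 -0.54 and Emcn 0.13, and the excess diet 2270 genes and Efnb2 -0.33. These fits hold fewer libraries. On the deficient and excess diets the series A libraries are exactly the RT1-CE16-low libraries. The values that follow for those diets therefore compare the same libraries again and are not a separate check. The RT1-CE16-low libraries gave 1563 genes, Bmx 1.06, Nr2f2 0.40 and Emcn 0.33 on the control diet, 2398 genes, Ephb4 -0.15, Nr2f2 0.45, Slc6a2 -0.54 and Emcn 0.12 on the deficient diet, and 2152 genes, Efnb2 -0.33 and Slc6a2 -1.07 on the excess diet. Fitting only the groups compared gave Nr2f2 0.31 and Slc6a2 -1.32 (deficient), and 1960 genes, Efnb2 -0.33 and Slc6a2 -1.07 (excess). With no series term, Emcn was 0.027 on the deficient diet and 0.18 averaged, and Ephb4 on the excess diet gained a call (-0.39), as it did by limma voom (-0.39) and with RT1-CE16 level as a term, alone (-0.32) or with sex (-0.31). Slc6a2 on the excess diet lost its call with RT1-CE16 level and sex (-0.89) and without a filter (-1.08).

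Genes called for diet after sham surgery numbered 14 in series A, 202 by DESeq2, 52 by limma voom and 55 with only those groups. DESeq2 then also called Emcn (adjusted p 0.0409). After Glenn surgery they numbered 6 with no series term, 155 in series A, 375 by DESeq2, 185 by limma voom, 54 without a filter, 8 with only those groups, 26 with RT1-CE16 level, 21 with sex added and 10 in RT1-CE16-low libraries. For the interaction they were 0 with no series term, 4 in series A, 35 by DESeq2, 5 by limma voom, 2 without a filter and 0 with RT1-CE16 level, without or with sex.

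The labels do not say that a shared replicate number marks a shared litter, batch or day. Deviations from the group means correlated with r -0.25 to 0.29 over 75 same-numbered pairs (median 0.10, 38 over 0.1) and with a median of -0.02 over different-numbered pairs, and 15 of 30 libraries correlated best with their own number. That is a hint from the data of some shared variation. The series was not removed from these deviations, and replicates 1 and 2 were series A with low RT1-CE16 in every group. Replicate number, series and RT1-CE16 level can therefore not be fully told apart here. Not every pair was over 0.1 and no label ties the numbers, so they were not treated as pairing the samples. With the replicate number as a block, Emcn on the deficient diet was 0.00989, Slc6a2 on the excess diet -1.01 (not called), and the diet tests called 37 genes after sham and 12 after Glenn surgery, and the interaction 2.

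Leaving out each library in turn gave Nr2f2 0.30 to 0.40 on the control diet (lost without sham control 2 or 3 or Glenn control 5) and 0.24 to 0.42 on the deficient diet (lost without sham deficient 1, 2 or 4 or Glenn deficient 1, 2 or 5). Ephb4 was -0.43 to -0.29 on the deficient diet (lost without sham or Glenn deficient 4) and -0.43 to -0.21 on the excess diet (gained without sham control 3, Glenn deficient 3, sham excess 1 or Glenn excess 1). Slc6a2 on the excess diet was -1.26 to -0.90 (lost without sham deficient 1 or 2, sham excess 2, 3 or 4, or Glenn excess 2 or 5). Emcn was -0.14 to 0.02 on the deficient diet (reversed to 0.017 without sham deficient 5) and 0.18 to 0.25 averaged (lost without Glenn deficient 2). The diet tests called 0 to 10 genes after sham surgery, 2 to 333 after Glenn surgery (333 without Glenn control 1, 2 without Glenn excess 1), and the interaction 0 to 14. Without the 2 farthest libraries, 1 of 30 relations between members passed the threshold, that of Slc6a2 and Emcn after sham surgery (r -0.84, permutation p 0.00051, against -0.59 in all 15).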
